A study of Mus musculus with 3 samples.

Results

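The genes described here encode Polycomb repressive complex 2 (PRC2). They comprise the 10 genes Ezh1, Ezh2, Eed, Suz12, Rbbp4, Rbbp7, Mtf2, Phf19, Jarid2 and Aebp2, chosen by name as core or accessory subunits out of 24421 genes with deposited read counts. All 10 were found in the files and all reached the minimum mean of 10 reads per library, as did 16670 of all genes, which form the set of genes compared. Expression was measured by RNA-Seq in undifferentiated mouse ES cells of the female line EL 16.7 (strain background F2:129S1/CastEiJx 129S1), with 1 library each for cells with a control (scramble) shRNA, labelled wild type, and for cells with either of the NUP153-specific shRNAs, KD-1 and KD-2. NUP153 is a nucleoporin of the nuclear basket. All cells carried an shRNA lentivirus, were grown with LIF and 20% FBS on γ-irradiated fibroblasts from Tg(DR4)1Jae/J mouse embryos, and were kept in 2 μg/ml puromycin for 2 days of selection. No step that removes the feeder cells is named in the sources used here, and fibroblast markers were read in each library. With 1 library per condition no spread between replicates could be measured, no difference between single libraries has a replicate check, and the intervals below cover the counting of reads only.

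PRC2 deposits methyl groups on lysine 27 of histone H3, the mark of repressed and bivalent developmental genes in ES cells. EZH2 or its paralog EZH1 carries the catalytic SET domain, and is active only together with EED, which binds the methylated product, and SUZ12, which holds the complex together. RBBP4 and RBBP7 are histone-binding WD40 proteins that PRC2 shares with histone deacetylase and chromatin assembly complexes. The core joins accessory subunits in either of the known forms, PRC2.1 with a Polycomb-like protein such as MTF2 or PHF19, and PRC2.2 with JARID2 and AEBP2.

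In the GENCODE M21 annotation of GRCm38, the genes lie on 8 chromosomes. Of the catalytic genes, Ezh2 is annotated at chr6:47530139-47595341 on the minus strand and Ezh1 at chr11:101191115-101226463 on the minus strand, each with 21 merged exons. Suz12 lies at chr11:79993106-80034123 (plus strand, 17 merged exons) and Eed at chr7:89954654-89980983 (minus strand, 13). Rbbp4 is annotated at chr4:129307100-129335370 (minus strand, 11 merged exons), and its paralog Rbbp7 at chrX:162760402-162779092 (plus strand, 12). Mtf2 lies at chr5:108065674-108109004 (plus strand, 21 merged exons) and Phf19 at chr2:34893757-34914026 (minus strand, 14). Jarid2 is annotated at chr13:44729474-44921643 (plus strand, 22 merged exons), on the chromosome that also holds Nup153, and Aebp2 at chr6:140622663-140678472 (plus strand, 13). Counts are summed over all exons of a gene, coding and UTR, so that isoforms are not told apart.

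The control library had 72344726 reads on genes, KD-1 had 85258834 and KD-2 had 69839336, and reads outside of annotated exons made up 21.5% to 24.1% of the deposited totals. Library sizes were adjusted by upper-quartile normalization, and the resulting scaled reads are used below unless a unit is named. Nup153, the targeted gene, had 30117 scaled reads in control, 15173 with KD-1 and 11164 with KD-2, a log2 fold change of -0.99 and -1.43. The 12 ES cell markers examined, among them Pou5f1, Nanog and Sox2, were read in all 3 libraries, and their summed level was 4948 CPM (reads of a gene per library, scaled to a common total) in control, 5407 with KD-1 and 4105 with KD-2. The 12 fibroblast markers examined, among them Col1a1, Col3a1 and Postn, were also read in all 3 libraries, and summed to 1919 CPM in control, 1006 with KD-1 and 3721 with KD-2. The summed level of fibroblast markers was therefore highest in KD-2 and lowest in KD-1, and the order of the ES cell markers was the reverse. In a bulk library, fewer cells of a type and less RNA per cell cannot be told apart.

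In control ES cells the PRC2 genes covered a wide range of levels, which are compared here as RPKM, the reads of a gene divided by the length of its merged exons in kilobases and by the reads on all genes. Rbbp7 was highest at 198 RPKM, followed by Mtf2 at 71.3, Eed at 61.5, Suz12 at 49.1 and Jarid2 at 39.5. Ezh2 had 25.7 RPKM, Rbbp4 22.5 and Aebp2 10.1. The lowest were Ezh1 at 2.63 RPKM and Phf19 at 1.17. Among all genes compared, Rbbp7 lay at percentile 98.5 in RPKM, Ezh2 at 87.8, Ezh1 at 51.1 and Phf19 at 38.4. In control, no 2 neighbours in this order had overlapping counting intervals. In KD-1 the order was that of control except that Suz12 (63.9 RPKM) stood above Eed (60.1 RPKM). In KD-2, Eed at 52.0 RPKM and Mtf2 at 51.9 RPKM had overlapping intervals, and Mtf2 no longer stood apart as the highest after Rbbp7. The order from Mtf2 to Ezh2 depends on the gene length used. With the length of the longest coding transcript in place of merged exons, Eed ranked above Mtf2, and Jarid2 and Ezh2 ranked above Suz12.

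**Figure D1:**
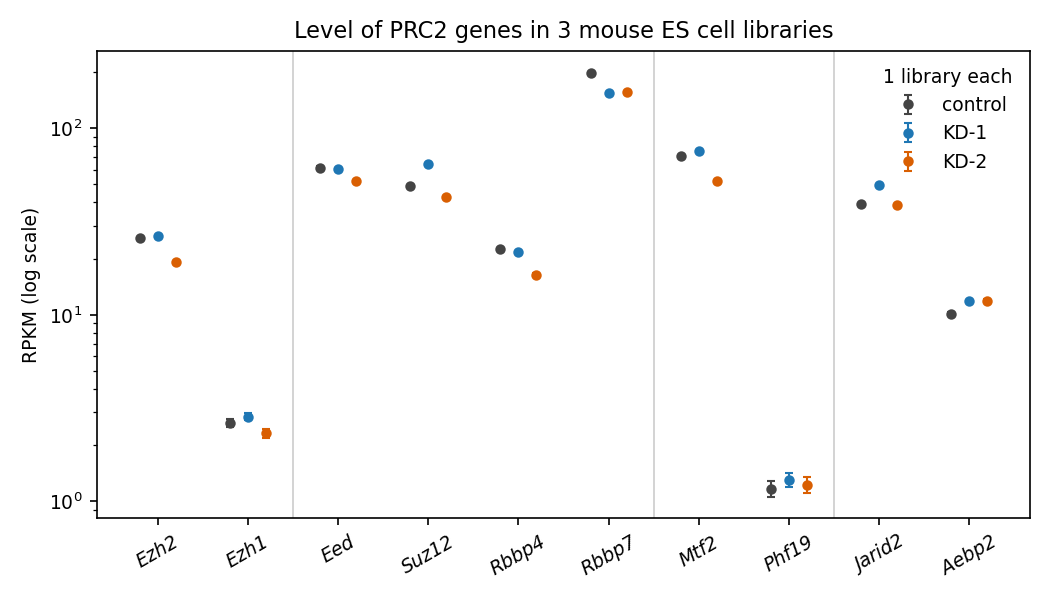
Level of each PRC2 gene in RPKM (log axis) in the control, KD-1 and KD-2 libraries, 1 library each, with exact Poisson 95% intervals of the reads, and grey lines between catalytic, other core, PRC2.1 and PRC2.2 genes. Rbbp7 (198 RPKM in control) and Phf19 (1.17 RPKM in control) mark the ends of the range, and the order of control holds in KD-1 except for Suz12 and Eed.

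Within pairs of subunits, ratios of RPKM do not depend on how libraries are scaled, and how a ratio differs between libraries does not depend on gene length. The size of a ratio does: with the longest coding transcript as length, control levels were 257 RPKM for Rbbp7 and 44.7 for Rbbp4, and 55.5 for Suz12 and 114 for Eed, which moves both ratios by more than 1.5 times. The ratio of Ezh2 to Ezh1 was 9.78 in control (counting interval 9.26 to 10.3), 9.23 with KD-1 (8.79 to 9.69) and 8.25 with KD-2 (7.76 to 8.77). Ezh2 was thus the predominant catalytic gene in all 3 libraries. The ratio of Mtf2 to Phf19 was 61.2 in control, 58.3 with KD-1 and 42.3 with KD-2, where the interval of 38.5 to 46.7 lies below that of control, 55.6 to 67.5. The ratio of Jarid2, of PRC2.2, to Mtf2, of PRC2.1, was 0.553 in control (0.544 to 0.563), 0.652 with KD-1 (0.643 to 0.662) and 0.745 with KD-2 (0.731 to 0.759). It was higher in both knockdown libraries than in control beyond counting error. Suz12 to Eed was 0.798 in control (0.782 to 0.815), 1.06 with KD-1 (1.04 to 1.08) and 0.821 with KD-2 (0.802 to 0.841). Rbbp7 to Rbbp4 was 8.80 in control (8.63 to 8.97), 7.15 with KD-1 (7.02 to 7.28) and 9.60 with KD-2 (9.39 to 9.82), so that it moved in opposite directions in the knockdowns.

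In NUP153 KD-1, 0 of the 10 PRC2 genes differed from control by more than 1.5-fold, the fold change that the study's methods require, compared to 14.2% of all genes, of which 8.63% were higher and 5.62% lower. In any amount, 3 of the 10 were lower, compared to 46.9% of all genes. Suz12, Jarid2 and Aebp2 had the highest values and Rbbp7 the lowest, with log2 fold changes between -0.35 and 0.39. In NUP153 KD-2, 3 of the 10 genes, Mtf2, Rbbp4 and Ezh2, were lower than control by more than 1.5-fold, compared to 10.2% of all genes that were lower by as much, and 0 were higher, compared to 17.1% (27.3% in either direction). The 3 lay just past 1.5-fold, with ratios to control of 0.652, 0.652 and 0.664. Counted in any amount, 9 of the 10 genes were lower in KD-2, compared to 51.7% of all genes, and the exception was Aebp2. The median log2 fold change of the PRC2 genes was 0.11 with KD-1 and -0.38 with KD-2, and over all genes it was 0.02 with KD-1 and -0.02 with KD-2. Both comparisons share the control library. The 3 genes past 1.5-fold in KD-2 fell short of it, at 0 of 10, when the libraries were scaled by TMM, by DESeq2's size factors, by library totals or to the ES cell markers.

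**Figure D2:**
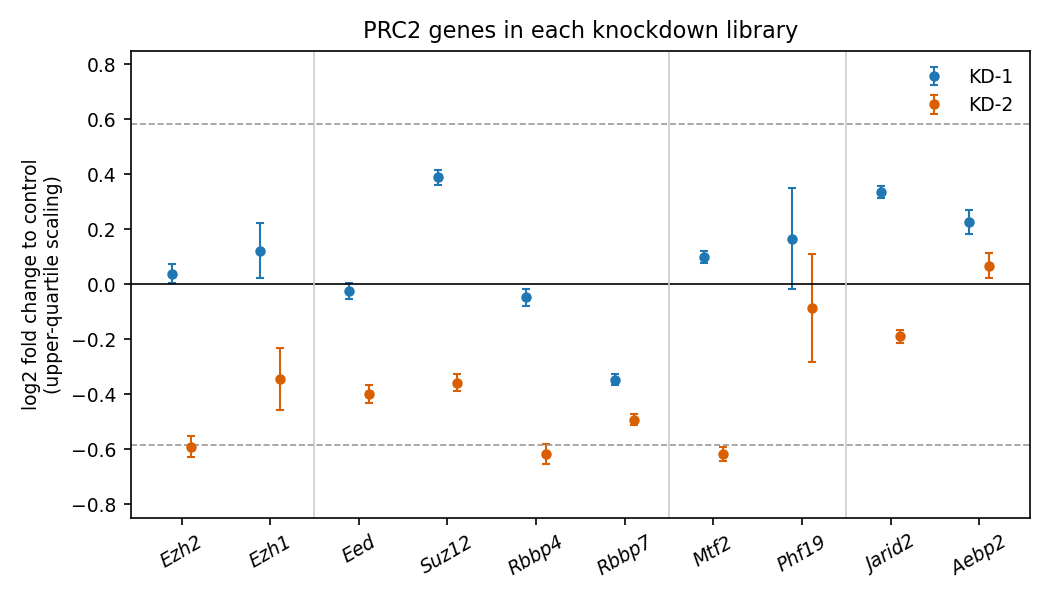
Log2 fold change of each PRC2 gene to control in the KD-1 and KD-2 libraries after upper-quartile scaling, with exact 95% counting intervals, and dashed lines at 1.5-fold. All KD-1 values lie within the dashed lines, from -0.35 for Rbbp7 to 0.39 for Suz12, and in KD-2 Mtf2, Rbbp4 and Ezh2 lie just below the lower line.

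Of the catalytic genes, Ezh2 had 13436 scaled reads in control, 13800 with KD-1 and 8928 with KD-2. The KD-2 library was the low one, while control and KD-1 differed by little. The log2 fold change of Ezh2 was 0.039 with KD-1 (0.0041 to 0.073) and -0.59 with KD-2 (-0.63 to -0.55). Its sign in KD-1 turned with DESeq2's size factors (-0.027) and with scaling to ES cell markers (-0.16). Ezh1, which is known to be more prominent in resting and differentiated cells, had 1530 scaled reads in control, 1667 with KD-1 and 1206 with KD-2. Its log2 fold change was 0.12 with KD-1 (0.02 to 0.22), which turned to -0.08 with scaling to ES cell markers, and -0.34 in KD-2 (-0.46 to -0.23). Ezh1 and Ezh2 therefore both had their lowest level in KD-2.

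Of the other core genes, Suz12 had 18974 scaled reads in control, 24848 with KD-1 and 14807 with KD-2. It was the PRC2 gene with the highest value in KD-1, at a log2 fold change of 0.39 (0.36 to 0.42), and it was at -0.36 in KD-2 (-0.39 to -0.33). Suz12 kept both signs under each library scaling, between 0.19 and 0.40 in KD-1 and between -0.36 and -0.20 in KD-2. Eed had 18398 scaled reads in control, 18086 with KD-1 and 13956 with KD-2. Its log2 fold change was -0.02 with KD-1 (-0.05 to 0.0050) and -0.40 with KD-2 (-0.43 to -0.37). The KD-1 value of Eed was -0.09 with DESeq2's size factors and -0.22 with scaling to ES cell markers, where its KD-2 value was -0.24. Rbbp4 had 15389 scaled reads in control, 14890 with KD-1 and 10033 with KD-2, with log2 fold changes of -0.05 (-0.08 to -0.01) and -0.62 (-0.65 to -0.58). As for Ezh2 and Eed, the KD-2 library stood below control and KD-1, though for Eed barely below KD-1 with scaling to ES cell markers. Rbbp7, located on chromosome X, had 45056 scaled reads in control, 35421 with KD-1 and 32046 with KD-2. Rbbp7 was the PRC2 gene that had the lowest value in KD-1, and the log2 fold change was -0.35 with KD-1 (-0.37 to -0.33) and -0.49 with KD-2 (-0.51 to -0.47). It was lower than control in both knockdown libraries under each scaling tried, between -0.55 and -0.33 in KD-1 and between -0.49 and -0.33 in KD-2. Among all genes, Rbbp7 lay at percentile 11.8 with KD-1 and 15.3 with KD-2.

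Of the PRC2.1 genes, Mtf2 had 31759 scaled reads in control, 34004 with KD-1 and 20705 with KD-2. The log2 fold change was 0.10 with KD-1 (0.08 to 0.12), or -0.10 with scaling to ES cell markers, and -0.62 in KD-2 (-0.64 to -0.59), the lowest value of a PRC2 gene. Mtf2 lay at percentile 8.68 of all genes in KD-2. Phf19 had only 425 reads in control, 559 with KD-1 and 431 with KD-2, and its intervals of -0.02 to 0.35 in KD-1 and -0.28 to 0.11 in KD-2 include 0, so that no difference was detectable at this depth, and both signs turned under some scalings. Of the PRC2.2 genes, Jarid2 had 29971 scaled reads in control, 37827 with KD-1 and 26294 with KD-2. Its log2 fold change was 0.34 with KD-1 (0.31 to 0.36) and -0.19 with KD-2 (-0.21 to -0.16). Both signs were kept under each scaling, but the KD-2 value shrank to -0.031 with library totals and -0.034 with scaling to ES cell markers. Aebp2, which encodes a zinc finger protein, had 7813 scaled reads in control, 9135 with KD-1 and 8187 with KD-2. With log2 fold changes of 0.23 (0.18 to 0.27) and 0.07 (0.02 to 0.11), Aebp2 was the one PRC2 gene with a higher value than control in both libraries, at 1.17-fold and 1.05-fold, and its values stayed above control under each scaling, down to 0.026 in KD-1 with scaling to ES cell markers. With library totals Phf19 was also above control in both, at 0.16 and 0.07, and with scaling after a minimum mean of 100 reads at 0.18 and 0.0054.

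The KD-1 and KD-2 libraries were also compared directly, which leaves out the control library. All 10 PRC2 genes had higher values in KD-1 than in KD-2, while 41.1% of all genes had lower ones. By more than 1.5-fold, 3 of the 10 were higher, compared to 13.9% of all genes, and 0 were lower, compared to 16.1% (30.1% in either direction). The 3 higher genes were Suz12 with a log2 fold change of 0.75 (0.72 to 0.78), Mtf2 with 0.72 (0.69 to 0.74) and Ezh2 with 0.63 (0.59 to 0.67). Ezh2 was no longer past 1.5-fold with TMM (0.57), DESeq2's size factors (0.53) or the minimum mean of 100 reads (0.55). The smallest differences were 0.14 for Rbbp7, 0.16 for Aebp2 and 0.25 for Phf19. The median was 0.50 for PRC2 genes and 0.12 for all genes. Higher values in KD-1 were not particular to PRC2 genes. Of genes in complexes that methylate lysine 4 of histone H3, 11 of 11 were higher, with a median of 0.58. So were 11 of 11 genes of other complexes with Rbbp4 or Rbbp7 (0.39) and 12 of 12 cycling cell markers (0.49). Of ES cell markers 10 of 12 were higher, of other PRC2 partners 5 of 7 and of fibroblast markers 1 of 12. Since the choice of scaling shifts the median gene by more than 0.1 in this comparison, the values were also taken relative to it, and 10 of 10 PRC2 genes lay above the median gene, by 0.02 for Rbbp7 up to 0.62 for Suz12. On the same scale, 7 of 10 lay above the median gene in KD-1 against control and 9 of 10 lay below it in KD-2 against control, with medians of 0.09 and -0.36 relative to the median gene. The signs of Aebp2 and Rbbp7 turned with library totals, at -0.0080 and -0.022, and with scaling to ES cell markers, at -0.20 and -0.21, and that of Phf19 turned with the latter, at -0.10. With scaling to ES cell markers 0 of the 10 genes differed by more than 1.5-fold between KD-1 and KD-2, and the same count was obtained with library totals.

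**Figure D3:**
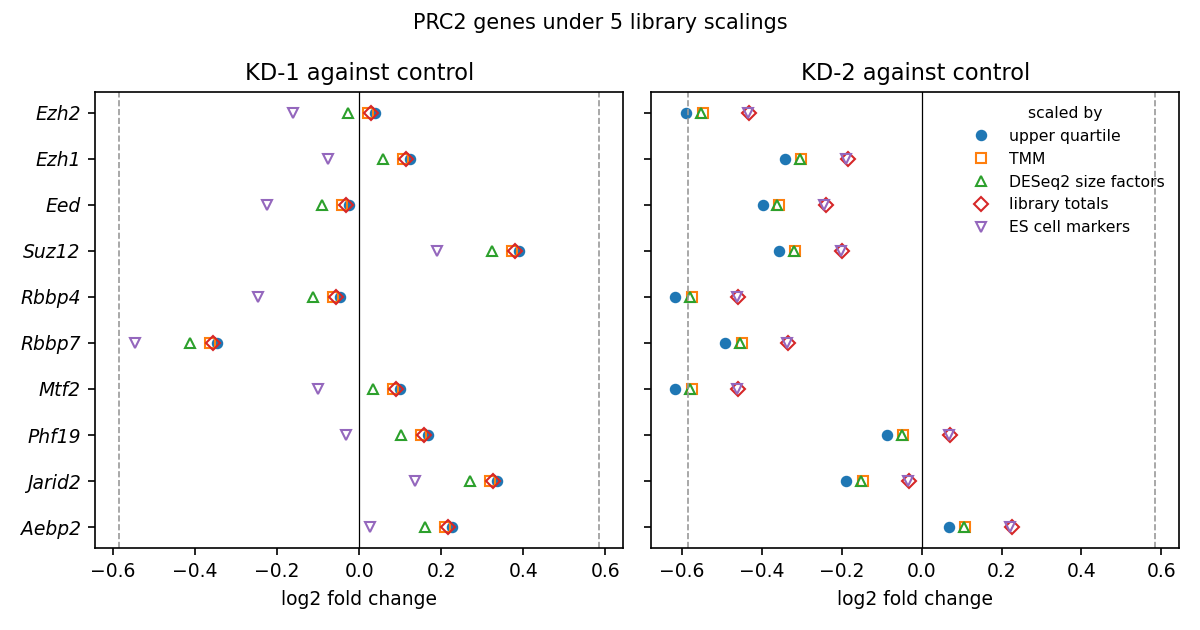
Log2 fold change of each PRC2 gene to control in KD-1 and KD-2 with the libraries scaled in 5 ways, dashed lines marking 1.5-fold. In KD-2, values of Mtf2 ranged from -0.62 with the upper quartile to -0.46 with library totals, and in KD-1 those of Suz12 ranged from 0.19 with ES cell markers to 0.39 with the upper quartile.

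The quasi-likelihood test of edgeR was used to set KD-1 and KD-2, taken as 1 group, against control, and rests on 1 residual degree of freedom. Its estimate of spread was drawn from all genes together, so that the SE values below are not each gene's own spread. None of the PRC2 genes, 0 of 10, was called, compared to 1 of 16670 genes (0.006%), the microRNA gene Mir6236. At an unadjusted p-value under 0.05 were 0 PRC2 genes and 211 of all genes, and DESeq2's Wald test also called 0 PRC2 genes and 2 of all genes. The log2 fold changes of the group lay between -0.42 for Rbbp7 (SE 0.52) and 0.15 for Aebp2 (SE 0.43), each with an adjusted p-value of 1.00 in edgeR. Nup153 itself had a log2 fold change of -1.19 (SE 0.46, unadjusted p = 0.00881) and was not called after adjustment. A p-value above the threshold does not show that levels were equal.

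The promoters of the PRC2 genes were examined because Mtf2, Rbbp4 and Ezh2 lay past 1.5-fold in KD-2 and Suz12 differed most between the knockdown libraries. Sequences of the region before the start of transcription are given 5′ to 3′ as 270 bases, from 250 before to 20 at and after the start, as annotated in RefSeq on GRCm38.p6. Capitals mark a match to any of 4 forms of the E2F motif, TTTGGCGC, TTTCCCGC, TTTCGCGC and TTTGCCGC, on either strand. E2F factors are known to drive genes of the cell cycle and DNA replication.

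Ezh2, chr6:47595011-47595280, minus strand: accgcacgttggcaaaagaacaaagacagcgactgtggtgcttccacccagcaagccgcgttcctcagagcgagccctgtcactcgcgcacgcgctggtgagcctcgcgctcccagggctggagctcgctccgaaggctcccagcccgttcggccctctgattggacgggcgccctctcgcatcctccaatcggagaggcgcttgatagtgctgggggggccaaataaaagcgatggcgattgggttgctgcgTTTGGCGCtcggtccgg
Mtf2, chr5:108065424-108065693, plus strand: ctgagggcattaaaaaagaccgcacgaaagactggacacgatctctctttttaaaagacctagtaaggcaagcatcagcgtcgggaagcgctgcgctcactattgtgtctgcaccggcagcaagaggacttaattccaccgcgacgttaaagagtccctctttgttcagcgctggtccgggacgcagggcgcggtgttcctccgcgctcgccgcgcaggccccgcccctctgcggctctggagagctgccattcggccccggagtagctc
Rbbp4, chr4:129335351-129335620, minus strand: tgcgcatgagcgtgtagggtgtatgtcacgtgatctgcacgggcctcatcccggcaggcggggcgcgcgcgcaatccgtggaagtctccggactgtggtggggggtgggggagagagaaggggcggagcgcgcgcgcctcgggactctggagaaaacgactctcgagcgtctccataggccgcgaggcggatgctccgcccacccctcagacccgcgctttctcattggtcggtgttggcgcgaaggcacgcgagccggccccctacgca
Suz12, chr11:79992856-79993125, plus strand: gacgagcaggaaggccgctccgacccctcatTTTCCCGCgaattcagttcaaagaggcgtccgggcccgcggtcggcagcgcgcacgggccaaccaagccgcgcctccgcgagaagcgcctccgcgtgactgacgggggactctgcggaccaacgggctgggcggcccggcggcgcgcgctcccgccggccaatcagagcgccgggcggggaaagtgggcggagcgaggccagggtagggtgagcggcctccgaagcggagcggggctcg

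In the full window, which reaches 50 bases past the start, the Ezh2 promoter holds TTTGGCGC with its first base at position 3, counted from 0 at the start, and the Suz12 promoter holds TTTCCCGC with its first base at position -219. The windows of Mtf2 and Rbbp4 hold none of the 4 forms. Shorter or other forms were not searched, and the Rbbp4 window does hold TTGGCGC, which is TTTGGCGC without its first T. All 10 PRC2 genes had an entry in the promoter table, with 14 promoters in all, of which 3 hold an E2F form, those of Ezh2, Suz12 and Phf19. For Phf19 the last 20 bases of the full window were found in 0 of its GENCODE transcripts, so that its start was not borne out by that annotation. Of all 32851 promoters in the table, 2.27% hold any of the 4 forms. CCAAT, bound by NF-Y, was found on either strand in 9 of the 14 promoters and in 37.4% of all promoters. G and C made up 64.3% of the promoter of Ezh2, 60.7% of that shown for Mtf2, 68.7% of that of Rbbp4 and 71.0% of that of Suz12, compared to a median of 52.7% over all promoters. The 14 promoters ranged from 45.7% to 75.7%, and 3 lay below that median, the other promoter of Mtf2 and those of Aebp2 at 48.0% and 50.7%. These matches are a description of the sequence.

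The 10 genes were set beside lists of genes with related roles, and the 1.5-fold shares of all genes given above hold as the background. Among 7 other PRC2 partners, Ezhip, an inhibitor of PRC2 that the files name AU022751, had 74 reads in control, 153 with KD-1 and 98 with KD-2, and was past 1.5-fold in KD-1, at a log2 fold change of 0.82, and not in KD-2, at 0.30. The difference between these was not tested. Phf1, the remaining Polycomb-like gene, had 183 reads in control, 259 with KD-1 and 346 with KD-2, with log2 fold changes of 0.27 and 0.81. The other 5, Epop, Lcor, Lcorl, Elob and Eloc, did not pass 1.5-fold in either library. The mark placed by PRC2 is removed by KDM6A and KDM6B. Kdm6b had 264 reads in control, 499 with KD-1 and 446 with KD-2, with log2 fold changes of 0.69 and 0.65, and was past 1.5-fold in both, though not in KD-1 with scaling to ES cell markers. Kdm6a, Crebbp and Ep300 were not past 1.5-fold in either library.

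Genes of the complexes that methylate lysine 4 of histone H3, the other mark of bivalent genes, had a median log2 fold change of 0.37 with KD-1 and -0.31 with KD-2 over 11 genes. The methyltransferase genes Kmt2a (0.63) and Kmt2c (0.66) were higher by more than 1.5-fold in KD-1, where 8.63% of all genes were, and Dpy30, a shared subunit, was lower in KD-2 (-0.69). With scaling to ES cell markers the median was 0.17 and -0.16, and none of these 3 calls was kept, at 0 of 11 in both libraries. Of 11 genes of other complexes that hold RBBP4 or RBBP7, 0 were past 1.5-fold in KD-1 and 1 was lower in KD-2, Hat1 at -0.65, the histone acetyltransferase that acts with RBBP7. Their median was 0.08 with KD-1 and -0.33 with KD-2, compared to 0.11 and -0.38 for the PRC2 genes. With scaling to ES cell markers it was -0.12 and -0.18, compared to -0.09 and -0.22 for the PRC2 genes, and the call of Hat1 was lost.

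The 12 cycling cell markers had a median of 0.02 with KD-1 and -0.53 with KD-2. In KD-2, 4 of them were lower by more than 1.5-fold, Top2a at -0.76, Pcna at -0.71, Ccnb1 at -0.62 and Mcm6 at -0.59, and their summed level was 6677 CPM in control, 6439 with KD-1 and 5129 with KD-2. The ES cell markers had a median of 0.17 with KD-1 and -0.25 with KD-2. Of these 12 genes, 3 were lower by more than 1.5-fold in KD-2, Zfp42 at -0.70, Dppa4 at -0.67 and Tdgf1 at -0.61, while Utf1 was higher in both libraries, at 0.69 with KD-1 and 1.17 with KD-2. The fibroblast markers had a median of -0.66 with KD-1 and 0.78 with KD-2, and by more than 1.5-fold 8 of 12 were lower in KD-1, while 9 of 12 were higher in KD-2. Fbln1 went the other way and was higher by more than 1.5-fold in KD-1, at 0.64 (0.43 to 0.85), though not with scaling to ES cell markers. The 4 markers with the largest changes were Postn at -2.01 and 0.68, Lum at -1.44 and 0.81, Col1a2 at -1.35 and 0.71, and Col5a1 at -0.15 and 1.58, in KD-1 and KD-2 respectively. In KD-2, lower values of PRC2 genes thus stood beside a lower summed level of cycling cell markers and a higher one of fibroblast markers, and the part of either in these values was not tested. With libraries scaled to the ES cell markers, the median of the PRC2 genes was -0.09 with KD-1 and -0.22 with KD-2, while the median of all genes was -0.18 and 0.13. Under that scaling 1 of the 12 cycling cell markers was past 1.5-fold in KD-2. Of the ES cell markers 0 were in KD-1 and 1 in KD-2, but these genes set the scaling, which removes their mean change by construction.

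**Figure D4:**
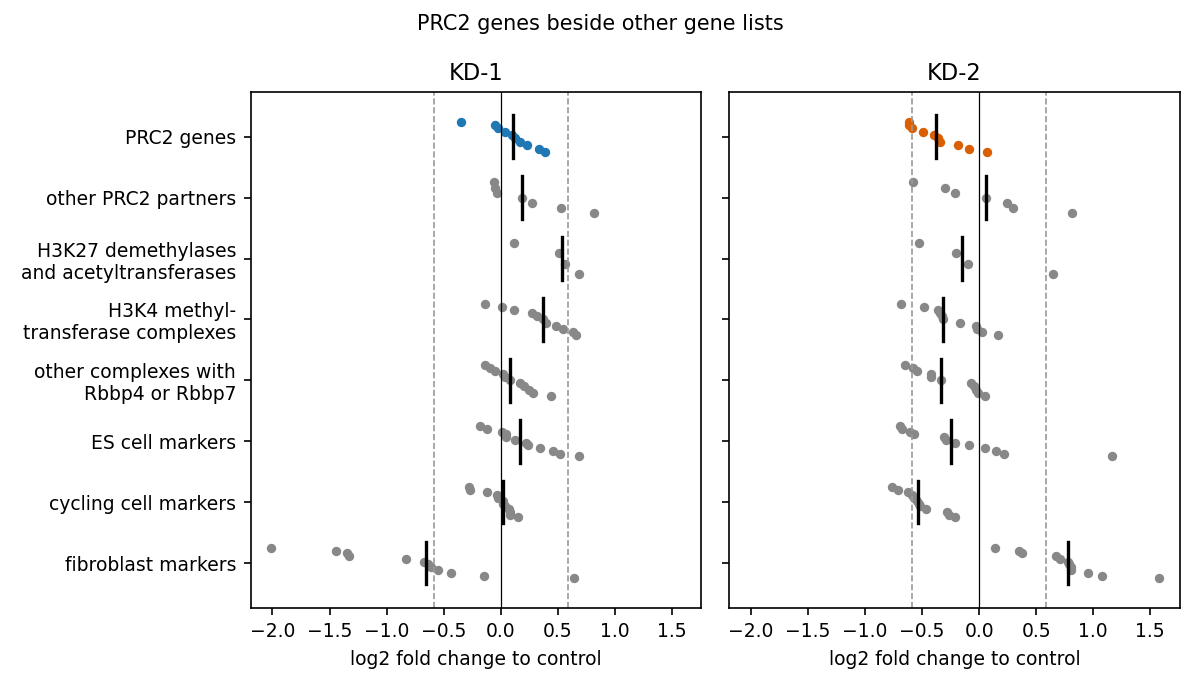
Log2 fold change to control in KD-1 (left) and KD-2 (right) of each gene compared in 8 lists, 1 point per gene, black bars marking medians and dashed lines 1.5-fold. PRC2 genes (coloured) have a median of 0.11 with KD-1 and -0.38 with KD-2, beside 0.08 and -0.33 for other complexes with Rbbp4 or Rbbp7 and 0.17 and -0.25 for ES cell markers, and opposite to the fibroblast markers (-0.66 and 0.78).

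Of 20 listed developmental genes that PRC2 is known to repress in ES cells, 14 had a mean of at least 10 reads. Of these 14, 5 were higher by more than 1.5-fold in KD-1. In KD-2, 8 were higher and 1, Wt1, was lower, at 15 reads compared to 22 in control. Counting intervals include 0 for Sox17 (-0.11 to 1.81) and Neurod1 (-0.07 to 1.52) in KD-1, and for T (-0.02 to 1.30), Sox1 (-0.42 to 2.33) and Wt1 (-1.71 to 0.35) in KD-2, so that no difference was detectable for these at this depth. Cdkn2a, the cell cycle inhibitor locus that fibroblasts in culture also express, was the most abundant, with 1650 reads in control, 1717 with KD-1 and 3768 with KD-2, and log2 fold changes of -0.17 and 1.08. Cdx2, a trophectoderm factor, had 6 reads in control, 25 with KD-1 and 24 with KD-2. Msx1 had 4, 5 and 27 reads in the same order, and Sox1, a neural factor, had 8, 24 and 16. Cdx2, Msx1 and Sox1 had fewer than 10 reads in control and passed the minimum mean through their reads in the knockdown libraries, so that their higher values there were fixed by the minimum. All 3 are among the 8 genes higher in KD-2, and Cdx2 and Sox1 among the 5 higher in KD-1, so that these counts are a description of the list and are not read against the shares of all genes. Olig2 had 0 reads in all 3 libraries, and Eomes, the most abundant of those past 1.5-fold in both libraries, had 249 reads in control, 463 with KD-1 and 406 with KD-2, at 0.67 and 0.60. With scaling to ES cell markers 3 of the listed genes were past 1.5-fold in KD-1, and Eomes was no longer among them. Beside these values, the summed level of fibroblast markers was above control in KD-2 and below it in KD-1, and their part in the values was not tested.

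Reads shared with other genes limit the counts of some PRC2 genes. Of the 50-base words in the longest coding transcript, 33.8% for Rbbp4 and 15.1% for Rbbp7 also occur in a transcript of another annotated gene on either strand. For Eed it was 10.5%, for Mtf2 8.68%, and for the remaining genes 3.03% or less. Exons of Rbbp4 overlap those of Sync by 782 bases on the opposite strand, and those of Mtf2 overlap Tmed5 by 395 bases. Those of Eed overlap E230029C05Rik by 261 bases and those of Rbbp7 overlap Txlng by 174 bases, also on the opposite strand. Reads with a low mapping quality had been left out before counting, and reads in an overlap of counted genes are not assigned where strand is not used. The counts of Rbbp4, Rbbp7, Eed and Mtf2 are therefore uncertain, but the shares above can overstate by how much. They include words from opposite-strand overlaps at the same locus, which can map to a single place. For Rbbp4 these include 796 bases of Gm26722, which was not counted. The reads lost were not measured.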

How the data were processed

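RNA-Seq libraries of mouse ES cells were used, 1 each for control, KD-1 and KD-2. Ribosomal RNA was depleted, and 50 bp reads were trimmed with Trim Galore 0.4.1 and mapped with TopHat 2.1.1 to mm10 by the authors, who deposited raw read counts per gene symbol from reads with a mapping quality above 30, without normalization. The methods name featureCounts, the processing notes HTSeq, and strand use is not given in the sources used here. The 5 summary lines were left out, with 21.5% to 24.1% of the total outside of exons and 1.45% to 1.65% ambiguous. No spike-in sequences are in the counts, and the study's dispersion from spike-ins was not used, so that no p-value is given between single libraries.

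Libraries were scaled by upper-quartile normalization in edgeR 4.0.16 (R 4.3.3), and log2 fold changes of scaled reads, each with 0.5 added as a pseudocount, were taken for genes whose mean was at least 10 reads. Differences above 1.5-fold were counted. Intervals are exact at 95% (conditional binomial for fold changes and ratios, Poisson for RPKM) and cover counting error only. Percentiles are ranks among the 16670 genes, for levels among those with a known length. The group of both knockdowns was tested with glmQLFTest, Benjamini-Hochberg adjusted at 0.05, and with DESeq2 1.42.0. P-values measure only the spread between these libraries, for which no separate cultures are stated. In the main edgeR fit that spread was drawn from all genes together, so that SE and p do not measure the spread of a single gene. Exon lengths came from GENCODE M21 (GRCm38), to which 23384 genes matched by symbol and 651 by an older symbol, and promoters from RefSeq. The tests were checked on simulated data. The members and lists were chosen with earlier results of these data known. Named were all 10 members, Nup153, and of each list up to 4 genes with the largest change past 1.5-fold in either knockdown. Mir6236, Fbln1, Eomes, Sox17, Neurod1, T, Olig2, Wt1 and list members named as not past 1.5-fold were added after their values were seen. Alternatives were TMM, DESeq2's size factors, library totals, scaling to the geometric mean of the 12 ES cell markers, no minimum, a minimum mean of 100 reads, a pseudocount of 5 and a fold of 2. The length of the longest coding transcript was added after seeing the data. Python 3.11.15, scipy 1.17.1, pandas 2.3.3 and matplotlib 3.10.9 were used.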

Additional observations from a re-analysis of the deposited data

Results flagged for a closer look

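For 5 PRC2 genes the KD-1 library lay above and the KD-2 library below control, with counting intervals that exclude 0 on both sides. Each knockdown has 1 library, and this difference between knockdowns was not tested. The log2 fold change of Suz12 was 0.39 for KD-1 and -0.36 for KD-2. Jarid2 was at 0.34 and -0.19, and Ezh1 at 0.12 and -0.34. Mtf2 was at 0.10 and -0.62, and Ezh2 at 0.039 and -0.59. For Suz12 and Jarid2 these directions held under each library scaling tried, although the KD-2 value of Jarid2 shrank to -0.031 with library totals. For Ezh1, Ezh2 and Mtf2 the KD-1 value turned negative with scaling to the ES cell markers.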

How the results depend on the processing

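In KD-1, 0 of the PRC2 genes passed the fold under any alternative. In KD-2, the count of 3 became 0 with TMM, DESeq2's size factors, library totals, scaling to ES cell markers, the minimum mean of 100 reads and the fold of 2, and the median moved to -0.34 with TMM and with DESeq2's size factors, -0.22 with library totals and with ES cell markers, and -0.29 with the minimum of 100. Between KD-1 and KD-2 the count became 0 with library totals, ES cell markers and the fold of 2, and the median 0.39 with DESeq2's size factors, 0.33 with library totals, 0.14 with ES cell markers and 0.42 with the minimum of 100. Scaling to ES cell markers moved the KD-1 median to -0.089, with reversed values of -0.076 for Ezh1, -0.16 for Ezh2 and -0.10 for Mtf2, and between KD-1 and KD-2 of -0.10 for Phf19, -0.20 for Aebp2 and -0.21 for Rbbp7. Library totals reversed Aebp2 (-0.0080) and Rbbp7 (-0.022) there, and DESeq2's size factors reversed Ezh2 in KD-1 (-0.027). Genes past the fold numbered 2375 in KD-1, 4547 in KD-2 and 5013 between both. A fold of 2 in the same genes gave 770, 1212 and 1839. A minimum mean of 100 reads, which left 12743 genes and was set before scaling so that the library factors changed as well, gave 1028, 2816 and 3137, and no minimum, with 21164 genes, gave 5298, 7461 and 8080. Of the genes past the fold, 60.6% were higher in KD-1 and 62.6% in KD-2, compared to 33.5% and 82.5% with ES cell markers, and 46.3% were higher in KD-1 than in KD-2, compared to 12.0%. With DESeq2's size factors this last share was 32.9%. With library totals the shares in KD-2 and between both were 82.8% and 25.8%, and with the minimum of 100 reads 77.9% and 30.5%, with 49.4% in KD-1. The group test called 1 gene, 0 with DESeq2's size factors, and 2 with no minimum and with the Wald test. Leaving out the KD-1 or the KD-2 library gave a group value of -0.36 or 0.39 for Suz12, -0.19 or 0.34 for Jarid2, -0.087 or 0.17 for Phf19, -0.34 or 0.12 for Ezh1, -0.59 or 0.039 for Ezh2 and -0.62 or 0.10 for Mtf2, so that the first 3 reversed without KD-1 and the other 3 without KD-2. Of the lists, scaling to ES cell markers left 0 genes past the fold in KD-1 for H3K27 demethylases and acetyltransferases, H3K4 methyltransferase complexes and ES cell markers and 3 for developmental genes. In KD-2 it left 0 for H3K4 methyltransferase complexes and for other complexes with Rbbp4 or Rbbp7, and 1 each for ES and cycling cell markers. The ES cell markers themselves set this scaling, so that the fall in their counts follows in part from its construction. Without a minimum, 8 developmental genes were past the fold in KD-1. With the longest coding transcript as length, 8 PRC2 genes were above 10 RPKM in control, as with merged exons, and the ratio of Ezh2 to Ezh1 was 13.3. The causes of these differences were not tested beyond the construction of each alternative. No paired analysis was possible because each condition has 1 library. Depth limits Phf19 and the developmental genes, and the lack of replicates limits all.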
